A study of Mus musculus with 16 samples.

Results

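The 7 secreted glycoproteins of the extracellular matrix described here were followed through all 16 libraries: thrombospondin 1 (Thbs1), thrombospondin 2 (Thbs2), tenascin C (Tnc), tenascin N (Tnn), osteopontin (Spp1), osteonectin (Sparc) and fibronectin (Fn1). They were picked by gene symbol, and all 7 of 7 were found among the 12100 genes of the expression table. The study asked how mouse embryonic fibroblasts respond to transforming growth factor β (TGFβ) with and without Arkadia, a RING-type ubiquitin ligase of the nucleus that is encoded by Rnf111. Stranded, poly(A)-selected RNA was sequenced, with 1 library for each line and time in a set.

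The 4 lines, all from early passages, were as follows. The sim line was Ark-/- fibroblasts given a retrovirus that carries Arkadia with the core hydrophobic residues of its SUMO-interacting motifs SIM1 and SIM3 changed to alanine. The rvWT line was Ark-/- fibroblasts given the same MMLV-derived retrovirus with wild-type Arkadia, driven by the CAG promoter and followed by EGFP. The null line was Ark-/- fibroblasts without retrovirus, and WT was Ark+/+ fibroblasts. The letter in each library's code gives 2 sets of 8 libraries. Set A holds null and WT cells at 0, 1, 4 and 16 h of TGFβ at 2.5 ng/ml. Set B holds sim and rvWT cells at 0, 1 and 4 h and null cells at 0 and 1 h. Each genotype is represented by 1 line, and a line cannot be told apart from its genotype. Likewise the retrovirus cannot be told apart from the Arkadia it carries, since cells with an empty virus were not analysed here.

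Fibronectin is a large dimeric adhesion protein that cells pull into fibrils through integrins, and these fibrils serve as the template on which collagens and other matrix proteins are laid down. Thrombospondins, tenascins, osteonectin and osteopontin are matricellular proteins: they sit in the matrix but mainly modulate adhesion, migration and growth factor signalling. TGFβ is a classical inducer of matrix genes in fibroblasts, acting through SMAD transcription factors. Arkadia is known to mark inhibitors of this pathway, such as SMAD7, SKI and SnoN, for destruction.

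The labels could be checked against the data. Rnf111 averaged 59.7 ± 3.3 FPKM in sim cells (SD over 3 times), 112.8 ± 11.9 in rvWT cells (3 times), 0.481 ± 0.0646 in set B null cells (2 times), 0.163 ± 0.0331 in set A null cells (4 times) and 14.8 ± 0.306 in WT cells (4 times). FPKM, fragments per length of transcript and per sequencing depth, is a level per unit of length, so it can be compared between genes. Both retroviral lines therefore carried more Rnf111 RNA than WT cells, and sim less than rvWT. Stimulation was visible at 1 h in the common target Smad7, an inhibitory SMAD, which rose by 2.04 ± 0.07 on the log2(FPKM + 1) scale (SE; limma adjusted p = 9.44e-08).

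The fibroblast label was also compared with markers. Of 10 fibroblast markers 8 were in the table, and Pdgfra and Dcn were not analysed here. Their summed level was 4134 to 4486 FPKM in sim, 4509 to 5080 in rvWT, 2571 to 2626 in set B null, 2619 to 3795 in set A null and 1728 to 2251 in WT libraries. Of 6 epithelial markers 4 were in the table, with a sum of 12.2 to 22.0 FPKM in sim, 10.7 to 18.2 in rvWT, 38.5 to 42.4 in set B null, 25.2 to 40.8 in set A null and 272 to 523 in WT libraries. Epcam and Cdh1 were not analysed here. The 4 did not move together: in null against WT 3 were called higher and 1 lower. The keratin Krt7 stood at 2.51 on the log2 scale (limma adjusted p = 7.19e-05) and the keratin Krt19 at −6.56 (4.02e-06). The keratin Krt8 stood at 1.87. Krt8 averaged 0.940 FPKM in WT and passed the filter on a mean of 1 FPKM only through its null libraries, so its value is a description, with no test. In null against WT cells all 8 tested fibroblast markers were called higher, in sim against null cells 8 of 8 and in rvWT against null cells 7 of 8, where 30.1%, 13.9% and 16.0% of all genes were called higher. Among the 8, Lum averaged 0.0226 FPKM in WT and 8.59 in set A null cells. It passed the filter only through its null libraries, so its call in null against WT adds nothing. In null against WT, the tested endothelial markers gave 1 higher and 1 lower, macrophage and blood markers 1 and 1, bone and cartilage markers 0 and 1, and muscle markers 0 and 0, and their summed levels reached at most 13.5, 17.7, 11.3 and 27.1 FPKM in any library. Kdr, the endothelial marker called higher, averaged 0.636 FPKM in WT and also passed the filter only through its null libraries. The part of these marker shifts in the results below was not tested, and in bulk RNA fewer cells of a type and less RNA per cell cannot be told apart.

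Sparc was the most abundant of the 7 genes, and Tnn the least. By mean level over the 16 libraries Sparc ranked 29 of 12100 genes with 1382 FPKM, Fn1 ranked 81 with 634 FPKM and Thbs1 ranked 207 with 289 FPKM. Spp1 followed at rank 1259 with 59.1 FPKM, Tnc at 2698 with 29.0, Thbs2 at 3812 with 19.9 and Tnn at 8967 with 3.81. The table gives 1 entry for each gene, and those of Fn1 and Spp1 are named as single transcript variants.

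**Figure D1:**
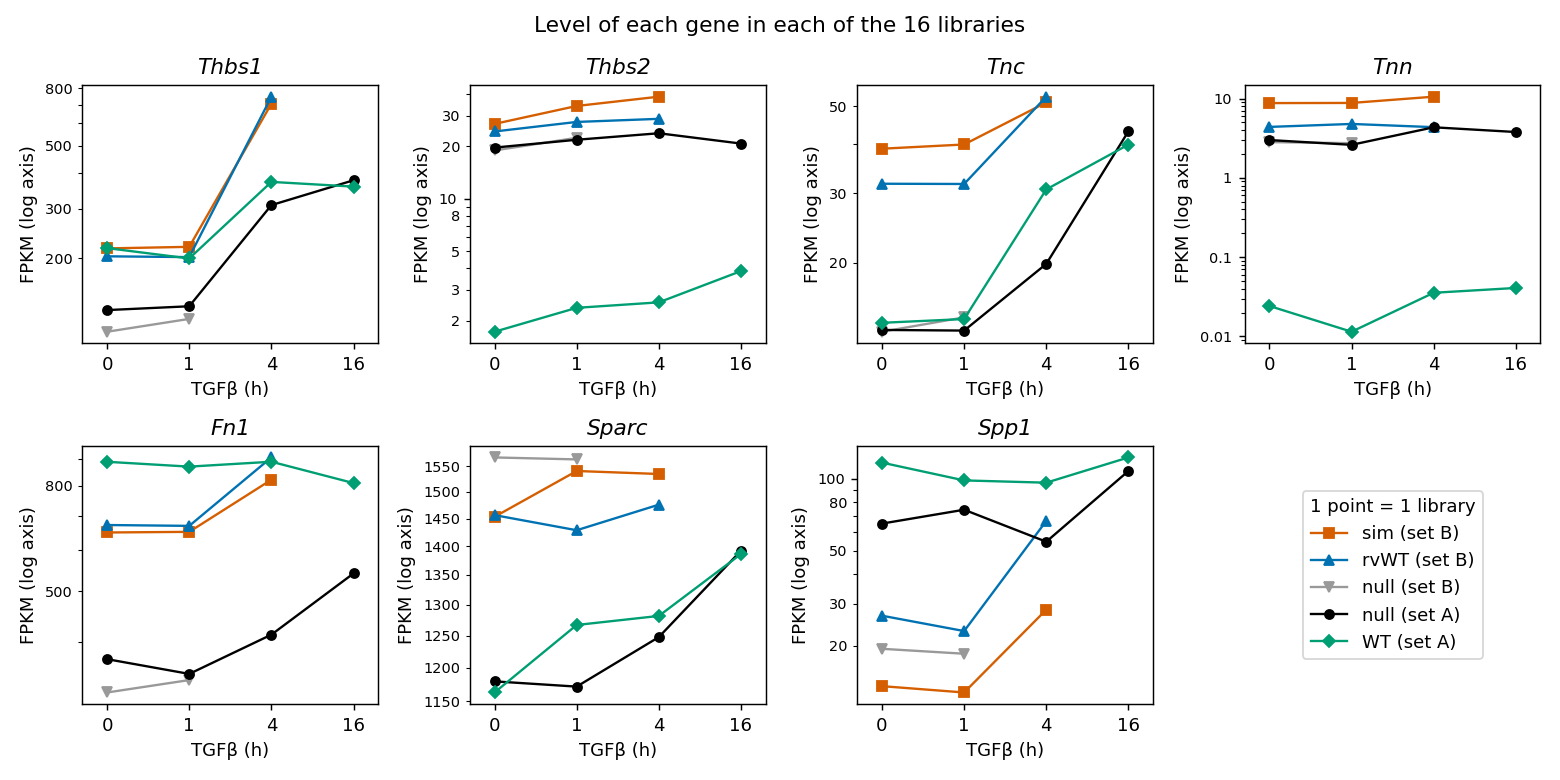
Level in FPKM (log axis, a separate scale in each panel) of the 7 genes against hours of TGFβ, with 1 point per library and 1 line per time series of sim, rvWT, null and WT cells. Thbs2 and Tnn lie lowest in all 4 WT libraries, Fn1 lies lowest in the 6 null libraries, and Thbs1 and Tnc climb at 4 and 16 h.

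Fn1, the fibril-forming scaffold, was lower in cells without Arkadia and higher in both retroviral lines than in null cells. Null cells of set A had 370.1, 347, 413 and 541 FPKM at 0, 1, 4 and 16 h, against 889, 870.0, 889 and 809 FPKM in WT cells. The groups did not overlap, and at 0 h null cells had 0.416 times the WT level. With the 4 times as repeats, the log2 difference was −1.07 ± 0.13 (SE), with a limma adjusted p of 0.00116. In this comparison 67.5% of all tested genes were called, and 11.3% differed by more than Fn1.

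In set B, Fn1 stood at 649, 651 and 821 FPKM in sim cells, 671, 669 and 906 FPKM in rvWT cells, and 319 and 337 FPKM in null cells at 0 and 1 h. Every sim and rvWT library lay above both null libraries and, at 0 and 1 h, below the WT libraries of set A. The log2 difference was 0.97 ± 0.06 for sim over null (limma adjusted p = 0.000352) and 1.04 ± 0.06 for rvWT over null (0.000215). Since null cells of set B stop at 1 h, these estimates rest on the 0 and 1 h libraries for the null side.

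Thbs2, an anti-angiogenic thrombospondin, moved the other way between null and WT. It measured 19.7, 21.8, 23.8 and 20.8 FPKM in null cells at 0, 1, 4 and 16 h, against 1.73, 2.37, 2.54 and 3.85 FPKM in WT cells. The lowest null library was far above the highest WT library, and the ratio at 0 h was 11.4. The log2 difference was 2.66 ± 0.14 (limma adjusted p = 9.85e-05), and 1.37% of all tested genes differed by more.

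The retroviral lines did not return to the WT level of Thbs2. Sim cells had 26.9, 34.1 and 38.6 FPKM and rvWT cells 24.4, 27.6 and 28.8 FPKM at 0, 1 and 4 h, against 19.0 and 22.4 FPKM in null cells of set B at 0 and 1 h. Both lines were thus further from WT than null cells were. The log2 difference over null was 0.57 ± 0.07 in sim (limma adjusted p = 0.00353) and 0.29 ± 0.07 in rvWT (0.0288). The rvWT call was lost when any 1 of 5 libraries was left out (both rvWT libraries at 0 and 1 h, sim at 1 h, and both null libraries; adjusted p up to 0.165), and without time as a block (0.37, 0.155).

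The promoter of Thbs2 is shown because this gene differed so widely between the lines and also answered TGFβ. The sequence is from RefSeq on GRCm38.p6, 250 bases before to 50 after the annotated start, at chr17:14694213-14694512 on the minus strand, and the capitals mark the SMAD core CAGAC or its reverse complement GTCTG.
Thbs2 promoter: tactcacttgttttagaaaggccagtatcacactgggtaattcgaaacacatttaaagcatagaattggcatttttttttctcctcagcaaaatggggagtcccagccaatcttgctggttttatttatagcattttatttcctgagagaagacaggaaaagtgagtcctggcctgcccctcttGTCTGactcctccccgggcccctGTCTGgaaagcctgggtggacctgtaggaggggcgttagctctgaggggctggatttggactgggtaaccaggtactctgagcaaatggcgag
Of 32851 mouse promoters of the same length, 49.6% hold this core on either strand, so the 2 matches describe the sequence and nothing more. RefSeq promoters were matched for 5 of the 7 genes. The AP-1 motif TGACTCA or TGAGTCA, held by 5.2% of promoters, had 0 matches in all of them.

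Thbs1, which can release TGFβ from its latent complex, was highest in the stimulated retroviral lines. Null cells of set A had 131, 136, 309 and 378 FPKM at 0, 1, 4 and 16 h, against 218, 200.03, 373 and 359 FPKM in WT cells. Null lay below WT at 0, 1 and 4 h and above it at 16 h, and the groups overlapped. The log2 difference of −0.37 ± 0.13 missed the threshold (limma adjusted p = 0.0549, 95% interval −0.71 to −0.03). It passed with quantile normalization (−0.49, adjusted p = 0.0141) and when either the null or the WT library at 16 h was left out (−0.52 in both, 0.00864 and 0.00865). In set B, sim cells had 217, 219.9 and 705 FPKM and rvWT cells 204, 202 and 746 FPKM, against 110.2 and 122 FPKM in null cells. All sim and rvWT libraries were above null, by 0.87 ± 0.07 in sim (adjusted p = 0.000933) and 0.83 ± 0.07 in rvWT (0.000897) on the log2 scale. Without time as a block the differences were 1.468 in sim and 1.425 in rvWT, and both calls were lost (adjusted p = 0.218 and 0.208). Null cells of set B have no 4 h library, so that fit mixes the 4 h response with the line difference.

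Tnc, a tenascin made in embryos and wounds, was level between null and WT before stimulation. Null cells had 13.5, 13.5, 19.9 and 43.2 FPKM at 0, 1, 4 and 16 h, against 14.1, 14.4, 30.7 and 39.9 FPKM in WT cells. The ranges overlapped, and the log2 difference of −0.16 ± 0.12 was not called (limma adjusted p = 0.288, 95% interval −0.47 to 0.15). In set B, Tnc stood at 39.0, 40.0 and 51.1 FPKM in sim and 31.8, 31.7 and 52.9 FPKM in rvWT, against 13.4 and 14.5 FPKM in null cells. Both retroviral lines exceeded null at every matched time, by 1.38 ± 0.10 in sim (adjusted p = 0.000636) and 1.19 ± 0.10 in rvWT (0.000778). At 0 h this was 2.92 times null in sim and 2.38 times null in rvWT, whereas in set A null had 0.959 times the WT level at that time.

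The Tnc promoter is given because Tnc was among the members that answered TGFβ at 4 and at 16 h. RefSeq lists 2 starts; the one shown lies at chr4:64046887-64047186 on the minus strand of GRCm38.p6, with the SMAD core in capitals. It holds 2 matches and the other start 1.
Tnc promoter: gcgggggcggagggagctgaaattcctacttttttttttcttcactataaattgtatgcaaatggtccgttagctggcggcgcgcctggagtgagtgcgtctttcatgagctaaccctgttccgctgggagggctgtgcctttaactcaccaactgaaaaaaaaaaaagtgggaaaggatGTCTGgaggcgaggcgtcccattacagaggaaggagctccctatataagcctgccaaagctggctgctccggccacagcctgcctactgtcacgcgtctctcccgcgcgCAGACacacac

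Tnn, a tenascin of developing skeleton, had the widest ratio between the lines. It was read at 2.99, 2.61, 4.34 and 3.78 FPKM in null cells at 0, 1, 4 and 16 h, against 0.0242, 0.0115, 0.0356 and 0.0409 FPKM in WT cells. WT libraries were thus near 0 throughout, and the log2(FPKM + 1) scale, which compresses low values, gave a difference of 2.09. Tnn passed the filter on a mean of 1 FPKM only through its null libraries, so it had to differ here and this value is a description, with no test. In set B, sim cells had 8.75, 8.79 and 10.5 FPKM and rvWT cells 4.38, 4.78 and 4.35 FPKM, against 2.82 and 2.73 FPKM in null cells. The 3 lines did not overlap. The difference from null was 1.42 ± 0.10 in sim (adjusted p = 0.000534) and 0.51 ± 0.10 in rvWT (0.0114). The rvWT call was lost without the rvWT 0 h or 1 h library or either null library (adjusted p up to 0.0949).

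The Tnn promoter is shown as that of a gene that was near 0 in WT cells and was not called at any TGFβ time. It lies at chr1:160153526-160153825 on the minus strand of GRCm38.p6 and holds no SMAD core, hence no capitals. Spp1 was not called at any TGFβ time either, and its RefSeq starts hold 2 and 1 matches.
Tnn promoter: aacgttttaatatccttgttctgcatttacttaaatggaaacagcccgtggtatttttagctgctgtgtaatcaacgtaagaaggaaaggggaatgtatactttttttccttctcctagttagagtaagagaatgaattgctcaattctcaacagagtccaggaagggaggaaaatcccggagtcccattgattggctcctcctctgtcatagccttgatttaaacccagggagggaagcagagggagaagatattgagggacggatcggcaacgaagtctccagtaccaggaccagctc

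Sparc, a collagen-binding protein, was almost level between the lines. Null cells had 1179, 1172, 1248 and 1392 FPKM at 0, 1, 4 and 16 h, against 1163, 1267, 1281 and 1386 FPKM in WT cells, with a log2 difference of −0.03 ± 0.03 (limma adjusted p = 0.453, 95% interval −0.12 to 0.06). Scaling by median ratios turned this small value to 0.03, and quantile normalization made it a called −0.32 (adjusted p = 0.00399). Sim cells had 1453, 1540.2 and 1534 FPKM and rvWT cells 1456, 1429 and 1476 FPKM, against 1567 and 1563 FPKM in set B null cells. The log2 difference from null was −0.06 in sim (adjusted p = 0.424) and −0.12 in rvWT (0.162). Both were called lower with quantile normalization, at −0.17 in sim (0.0413) and −0.31 in rvWT (0.00588).

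Spp1, an integrin-binding phosphoprotein, was lower in null than in WT cells within set A. Null cells of set A had 65.0, 74.3, 54.6 and 108.0 FPKM at 0, 1, 4 and 16 h, against 117, 98.6, 96.5 and 123 FPKM in WT cells. At each time null was the lower, though the ranges overlapped, and the log2 difference was −0.56 ± 0.12 (limma adjusted p = 0.0105). Of all tested genes 33.6% differed by more. In set B, sim cells had 13.5, 12.7 and 28.3 FPKM and rvWT cells 26.7, 23.0 and 66.7 FPKM, against 19.4 and 18.5 FPKM in null cells. Null lay between both retroviral lines at 0 and 1 h. Sim was lower than null by a log2 difference of −0.55 ± 0.10 (adjusted p = 0.0105), and rvWT was higher by 0.43 ± 0.10 (0.0216). Both calls were lost when either null library of set B was left out, and the rvWT call also without the rvWT 0 h library. Both were also lost when time was not a block (−0.147 in sim and 0.835 in rvWT), a fit that mixes the 4 h response with the line difference.

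The level of Spp1 in null cells depended on the set. At 0 h it was 65.0 FPKM in set A and 19.4 in set B, a ratio of 3.35, and at 1 h 74.3 and 18.5 FPKM, a ratio of 4.01. Only 0.836% of 10999 genes differed by more between the null libraries at 0 h, and 0.709% at 1 h. This gap within 1 line is wider than the differences between lines within a set, so lines were compared for Spp1 only within sets. The mean rank of Spp1 and its correlations on levels pool both sets and so include this gap. Sparc in null cells of set A was 0.753 times its set B level at 0 h and 0.749 times at 1 h, while the other 5 genes lay between 0.925 and 1.19 times.

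The Spp1 promoter is shown because Spp1 differed between sim and rvWT cells. Of its 2 RefSeq starts, the one at chr5:104434861-104435160 on the plus strand of GRCm38.p6 is given, with the SMAD core in capitals. It holds 2 matches and the other start 1.
Spp1 promoter: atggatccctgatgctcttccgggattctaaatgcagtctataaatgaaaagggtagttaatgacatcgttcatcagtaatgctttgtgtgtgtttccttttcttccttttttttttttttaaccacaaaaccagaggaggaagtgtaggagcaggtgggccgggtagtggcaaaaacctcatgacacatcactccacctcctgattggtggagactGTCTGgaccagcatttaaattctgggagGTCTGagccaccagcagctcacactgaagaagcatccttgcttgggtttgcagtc

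Counted together, null against WT called Thbs2 and Tnn higher and Fn1 and Spp1 lower at a limma adjusted p under 0.05; Tnn entered only through its null libraries and supports nothing. Across all genes 67.5% were called, 30.1% higher and 37.4% lower, so 3 called among the other 6 genes was no more than the background. In rvWT against null, 6 of 7 were called higher and 0 lower, where 38.6% of all genes were called, 16.0% higher and 22.6% lower. In sim against null, 5 of 7 were called higher and 1 lower, where 34.7% of all genes were called, 13.9% higher and 20.8% lower. These comparisons share the null libraries of set B. The median over the 7 was 0.87 in sim and 0.51 in rvWT, against −0.02 and −0.03 over all genes. Quantile normalization changed the split of all called genes to 2143 higher and 1952 lower in sim and 2414 and 2035 in rvWT, from 1528 and 2279 in sim and 1756 and 2474 in rvWT.

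The genes Fn1 and Spp1, were called lower in null than in WT and higher in rvWT than in null, comparisons that share no library. The same pattern held for 736 of 10662 genes, or 6.90%, and it was counted after the values were seen.

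**Figure D2:**
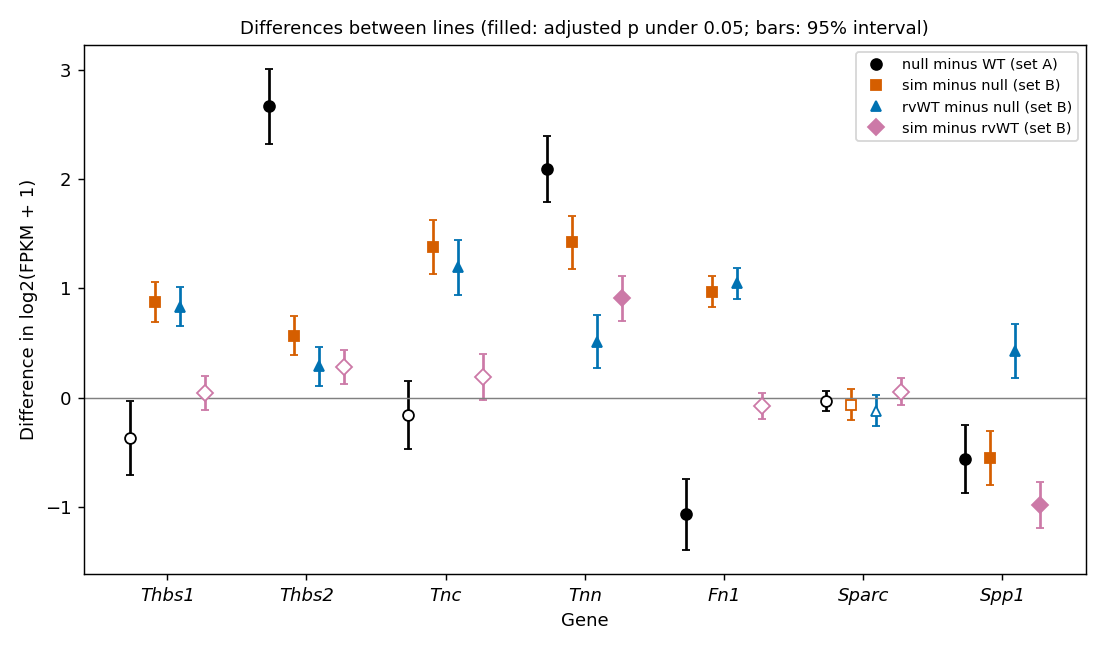
Log2 difference in FPKM + 1 for the 7 genes in 4 comparisons of lines, with points for the estimate (filled where the adjusted p is under 0.05) and bars for its 95% interval. Thbs2 and Tnn lie far above 0 in null minus WT and Fn1 below it, with Tnn in that comparison tested only through its null libraries, Fn1, Tnc and Thbs1 lie above 0 in both retroviral lines minus null, and Sparc stays near 0 throughout.

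The effect of the SIM mutation was asked by setting sim against rvWT cells at 0, 1 and 4 h. Tnn was higher in sim and Spp1 lower, at all 3 times. The ratios of sim to rvWT at 0, 1 and 4 h were 2.00, 1.84 and 2.42 for Tnn and 0.507, 0.553 and 0.425 for Spp1. The log2 difference was 0.91 ± 0.08 for Tnn (95% interval 0.70 to 1.11) and −0.98 ± 0.08 for Spp1 (−1.19 to −0.77), each with a limma adjusted p of 0.0234. Of all genes 0.493% were called, 0.356% higher and 0.137% lower. Both calls were lost whenever any 1 of the 8 libraries was left out, with the direction kept. Rnf111 itself differed between the lines, by −0.90 ± 0.05 (adjusted p = 0.0167), and its part in these results was not tested.

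The other 5 genes were not called between sim and rvWT. Thbs2 was higher in sim at all 3 times, at 1.10, 1.24 and 1.34 times rvWT, with an interval of 0.13 to 0.44 and an adjusted p of 0.150. The 95% intervals were −0.11 to 0.20 for Thbs1, −0.02 to 0.40 for Tnc, −0.07 to 0.18 for Sparc and −0.20 to 0.04 for Fn1.

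TGFβ at 1 h called none of the 7 genes, by limma over all 16 libraries with the time series as a block. Of all genes 5.96% were called, 3.95% higher and 2.01% lower, and 1 of the 7 had an unadjusted p under 0.05, Thbs2 with a log2 difference of 0.24 ± 0.09 (adjusted p = 0.189). Thbs2 passed when the WT or the null library at 16 h was left out (0.24 in both, adjusted p = 0.0102 and 0.0106). Thbs1 at 1 h was between 0.919 and 1.11 times its 0 h level in the 5 series, and Tnc between 0.996 and 1.09 times.

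At 4 h Thbs1, Tnc and Thbs2 rose. This is 3 of 7 called higher, where 39.0% of all genes were called, 11.9% higher and 27.1% lower; scaling by median ratios changed the split of all called genes to 1900 higher and 1817 lower, from 1317 and 2990. Thbs1 reached 3.25 times its 0 h level in sim, 3.67 in rvWT, 2.35 in null and 1.71 in WT, with a log2 difference of 1.41 ± 0.17 (limma adjusted p = 0.000287). Tnc reached 1.31 times in sim, 1.66 in rvWT, 1.47 in null and 2.18 in WT, with 0.68 ± 0.11 (0.00116). Thus the series with the steepest Thbs1 ratio was rvWT, and that with the steepest Tnc ratio was WT. Thbs2 rose less, by 0.34 ± 0.10 (0.0210), with ratios of 1.43 in sim, 1.18 in rvWT, 1.21 in null and 1.47 in WT. The Thbs2 call was lost without the WT 0 h, sim 0 h or sim 4 h library.

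Within the sets the 4 h results differed in how many genes passed. In set A alone, 0 of the 7 were called, with only 16 genes called of 10976; Thbs1 changed by 1.00, Tnc by 0.80 and Thbs2 by 0.32 on the log2 scale. In set B alone 5 were called, with Thbs1 at 1.81, Tnc at 0.57, Thbs2 at 0.36, Spp1 at 1.16 (limma adjusted p = 0.00183) and Fn1 at 0.40 (0.00623). The directions of Thbs1, Tnc and Thbs2 were the same in both sets.

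Fn1, Sparc, Tnn and Spp1 were not called at 4 h over all series. Fn1 at 4 h was 1.26 times its 0 h level in sim, 1.35 in rvWT, 1.11 in null and 1.00 in WT cells, with a log2 difference of 0.24 ± 0.11 (limma adjusted p = 0.0917). Spp1 was 2.09 times its 0 h level in sim and 2.50 in rvWT, against 0.839 in null and 0.824 in WT. The Spp1 series of set B thus lay above their 0 h level and those of set A below it, and the common difference was 0.45 ± 0.27 (0.214). Each passed under some other setting: Sparc with scaling by median ratios (0.16, adjusted p = 0.00952), Tnn with quantile normalization (0.27, 0.0358), Spp1 without the null 4 h library (0.73, 0.0396) and Fn1 without either 16 h library (0.24, 0.0161 and 0.0162).

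At 16 h, which only the null and WT series of set A reached, Tnc, Thbs1, Thbs2 and Sparc rose. This is 4 of 7 called higher, where 19.4% of all genes were called, 6.84% higher and 12.5% lower; scaling by median ratios changed the split of all called genes to 1047 higher and 947 lower, from 755 and 1384. Tnc stood at 3.20 times its 0 h level in null and 2.84 times in WT cells, a log2 difference of 1.49 ± 0.14 (limma adjusted p = 9.45e-05). Thbs1 stood at 2.88 times in null and 1.65 times in WT cells, 1.27 ± 0.22 (0.00312). Tnc was higher at 16 h than at 4 h in both lines, whereas Thbs1 in WT was slightly lower at 16 h than at 4 h. In set A alone, which holds all the 16 h libraries, Tnc was the only 1 of the 7 called; Thbs1 (1.12, adjusted p = 0.0564), Thbs2 (0.45, 0.245) and Sparc (0.25, 0.0736) were not. Sparc gained little, 1.18 times in null and 1.19 times in WT, but evenly, 0.23 ± 0.05 (0.00773).

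Thbs2 at 16 h was 1.05 times its 0 h level in null and 2.23 times in WT, with 0.46 ± 0.13 (limma adjusted p = 0.0306). The common value was 0.13 without the WT 16 h library, which ended the call, and 0.80 without the null 16 h library. The Thbs2 call was also lost without the WT 0 h, sim 0 h or either set B null library. Without the null 16 h library the Thbs1 and Sparc calls were lost (adjusted p = 0.0733 and 0.111), and the Sparc call also with quantile normalization (0.0601). Fn1 at 16 h was 1.46 times its 0 h level in null and 0.910 times in WT (0.28 ± 0.14, adjusted p = 0.181), Spp1 1.66 and 1.05 times (0.62 ± 0.36, 0.249) and Tnn 1.26 and 1.69 times (0.15 ± 0.12, 0.422). The WT ratio of Tnn is of values near 0, 0.0409 over 0.0242 FPKM, a change of 0.023 on the log2(FPKM + 1) scale. The Fn1 value was 0.61 without the WT 16 h library (adjusted p = 0.00481) and −0.05 without the null 16 h library.

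**Figure D3:**
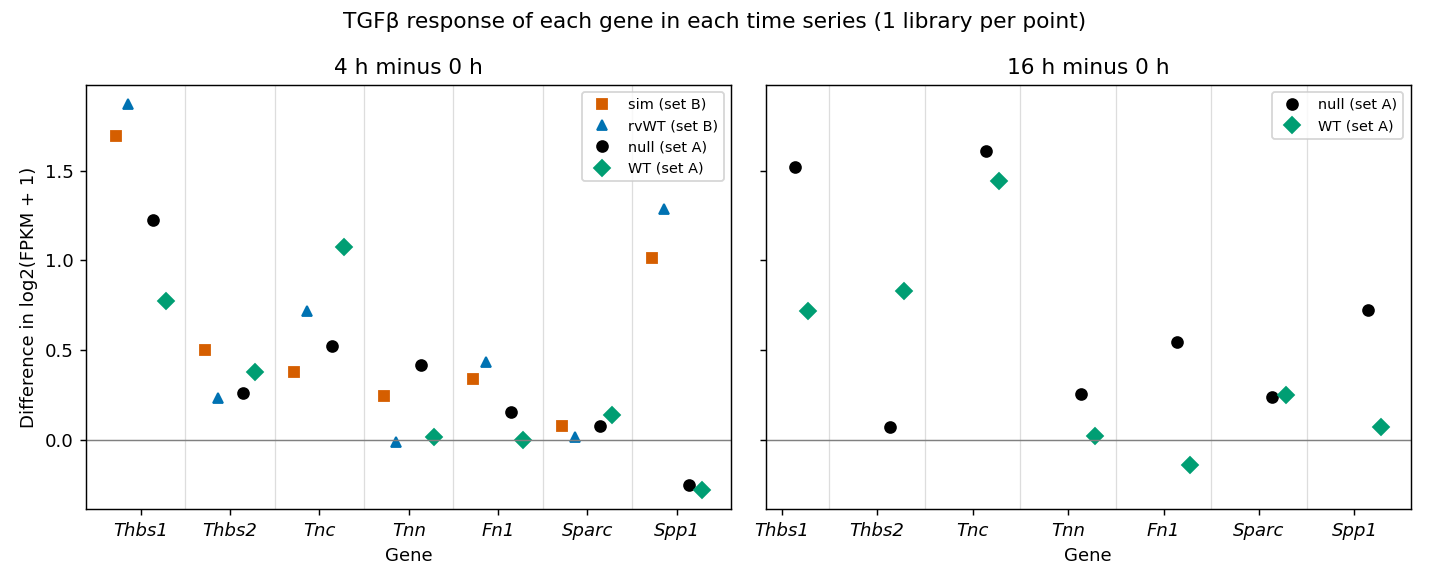
Log2 change in FPKM + 1 from 0 h of the 7 genes in each time series at 4 h (left) and 16 h (right) of TGFβ, with 1 point per library. Thbs1 and Tnc lie above 0 in every series at 4 and 16 h, and Spp1 at 4 h lies above 0 in sim and rvWT and below 0 in null and WT.

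Whether the lines answered differently was tested on the 4 and 16 h libraries together. The late response of null against the Arkadia-carrying lines called 0 of 7 genes by limma, where 0.0181% of all genes were called; 1 of the 7, Tnn, had an unadjusted p under 0.05 (0.37 ± 0.12, adjusted p = 0.336). The late response of sim, rvWT and null, all derived from Ark-/- cells, against WT also called 0 of 7, where 1.21% were called, 0.552% higher and 0.661% lower. Here 2 had an unadjusted p under 0.05. Thbs1 had a difference of 0.79 ± 0.18 (adjusted p = 0.0708, 95% interval 0.39 to 1.18) and Fn1 of 0.48 ± 0.12 (adjusted p = 0.105, 0.20 to 0.75). Without the null 4 h library both passed (0.85 and 0.51, adjusted p = 0.00689 and 0.0290), Thbs1 also with quantile normalization (0.54, 0.0461), and without the WT 4 h library Fn1 passed (0.76, 0.00869) with Thbs2 (−0.66, 0.0167). In the comparison with null alone, Thbs2 passed without the null 4 h library (−0.68, 0.0228). In set A alone, where null is the only derived line, the term against WT was 0.54 for Thbs1 (adjusted p = 0.501). For Fn1 it was 0.45 (0.556). The sim and rvWT libraries are all of set B, so line and set cannot be told apart for them in this term.

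Receptors of the 7 proteins were described beside them. Of 20 receptor genes listed 13 were tested, and at 4 h of TGFβ 8 were called higher and 1 lower, where 11.9% of all genes were called higher and 27.1% lower (1900 higher and 1817 lower with scaling by median ratios). Itga5, the α chain of the classical fibronectin receptor, rose by 1.56 ± 0.13 on the log2 scale (limma adjusted p = 6.01e-05). Itgb3 and Itgb5, β chains that pair with αv to bind osteopontin and vitronectin, rose by 1.23 ± 0.08 (1.32e-05) and 1.04 ± 0.11 (0.000155). At 16 h 7 were called higher and 1 lower, where 6.84% and 12.5% of all genes were, with Itgb1, the common β1 chain, at 0.65 ± 0.06 (6.76e-05). The median over the 13 was 0.23 at 4 h and 0.50 at 16 h, against −0.08 and −0.07 over all genes.

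Between lines the receptors split both ways. In sim against null, 6 were called higher and 3 lower, where 13.9% and 20.8% of all genes were, with Itgb3 at 1.18 ± 0.11 (limma adjusted p = 0.00145). The counts were the same in rvWT against null, where 16.0% and 22.6% of all genes were called, with Itga3 at −1.73 ± 0.05 (5.86e-05) and the hyaluronan and osteopontin receptor Cd44 at 0.65 ± 0.06 (0.000898). In null against WT, 3 were higher and 4 lower, with Itgb3 at −1.96 ± 0.06 (3.35e-05); 7 of 13 called is below the 67.5% of all genes.

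Fibrillar matrix genes that assemble with fibronectin were tested for 11 of 12. In sim and in rvWT against null, 9 were called higher and 2 lower in each, where 13.9% and 16.0% of all genes were called higher, with Col1a2, a chain of collagen I, at 1.61 ± 0.05 in sim (limma adjusted p = 8.36e-05) and 1.84 ± 0.05 in rvWT (4.25e-05). The matrix cross-linker Tgm2 was among the lower, at −1.48 ± 0.07 and −1.89 ± 0.07. In null against WT, 6 were higher and 3 lower, where 67.5% of all genes were called, 30.1% higher. Col3a1, collagen III, stood at 4.98 ± 0.13 (2.48e-05), whereas Fn1 was lower in the same cells. At 4 h 8 were higher and 1 lower, and at 16 h 8 higher and 0 lower, where 11.9% and 6.84% of all genes were called higher.

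Among 15 tested of 16 other matricellular and adhesive genes, 10 were called higher and 3 lower in null against WT, 9 higher and 4 lower in sim against null, and 8 higher and 3 lower in rvWT against null. The shares of all genes called were 67.5%, 34.7% and 38.6%. Postn, periostin, averaged 0.463 FPKM in WT and 81.7 in set A null cells. It passed the filter only through its null libraries there, so any call of it in null against WT adds nothing. In set B, Postn was higher than null by 3.88 ± 0.05 in sim (limma adjusted p = 1.49e-05) and 3.24 ± 0.05 in rvWT (2.03e-05), more than any of the 7 genes. Between sim and rvWT 2 of the 15 were called, Nov at 1.33 ± 0.05 (0.00460) and Postn at 0.64 ± 0.04 (0.0188). Of all genes 0.493% were called between these lines. At 1 h of TGFβ 4 were called higher, where 3.95% of all genes were. The 4 included the CCN genes Wisp1, Cyr61 and Ctgf at 0.90, 0.76 and 1.88, at a time when none of the 7 genes was called. At 4 h 8 were higher and 3 lower, and at 16 h 7 higher and 5 lower, where 39.0% and 19.4% of all genes were called.

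Closer relatives were few. Of 5 further thrombospondin and tenascin genes only Thbs3 was tested; it was higher in sim than in null cells (0.70 ± 0.07, limma adjusted p = 0.00172), in rvWT than in null (0.57 ± 0.07, 0.00281) and in null than in WT (0.23 ± 0.08, 0.0457), and was not called at any TGFβ time. Of 11 further SPARC and SIBLING family genes, Fstl1 and Smoc2 were tested, and both were higher in sim and in rvWT than in null. Both rose at 4 h, by 0.50 ± 0.09 and 0.94 ± 0.16 (adjusted p = 0.00293 and 0.00192), when Sparc was not called. Of all genes 13.9% were called higher in sim against null, 16.0% in rvWT against null and 11.9% at 4 h. In null against WT 67.5% of all genes were called, 30.1% higher, so the Thbs3 call in that comparison is a common one.

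Proteases and their regulators, which cut or spare this matrix, were tested for 15 of 16 genes. At 4 h 9 were called higher and 5 lower, with the collagenase Mmp14 at 0.47 ± 0.04 (limma adjusted p = 4.96e-05), and at 16 h 8 higher and 4 lower, where 39.0% and 19.4% of all genes were called. The calls were 7 higher and 5 lower in sim against null, 7 and 4 in rvWT against null, and 6 and 3 in null against WT, where 34.7%, 38.6% and 67.5% of all genes were called, so the last count was no more than the background. Mmp3 averaged 0.298 FPKM in WT and 10.6 in set A null cells, and Mmp9 0.351 and 8.21. Both passed the filter in set A only through null libraries, so any call of them in null against WT adds nothing. Of 9 tested latent TGFβ genes, 5 were higher and 0 lower at 4 h, led by the binding protein Ltbp2 at 1.67 ± 0.15 (6.65e-05), and 5 and 0 at 16 h, where 11.9% and 6.84% of all genes were called higher. In sim against null 2 were higher and 1 lower, in rvWT against null 2 and 2, and in null against WT 3 and 2, shares near or below those of all genes.

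Genes with the most similar pattern were found by Pearson correlation of log2(FPKM + 1) over the 16 libraries among 8287 genes, which share lines, sets and times, so the values are descriptions. After removing each series' mean, Tnc was most like Bcat1 (r = 0.98), Spp1 like Gnl2 (0.97), Fn1 like the collagen Col6a3 (0.97) and Sparc like Col1a1 (0.96). Thbs2 was most like Cx3cl1 (0.91) and Tnn like Cstf3 (0.88). On the levels themselves, Fn1 was most like fibrillin 1, Fbn1 (0.97), Thbs1 like Palld (0.98), Thbs2 like Tspan14 (0.99), Tnc like Pdia5 (0.94), Tnn like Spcs2 (0.97), Spp1 like Ddx39 (0.95) and Sparc like Pex14 (0.89). Among the 7 themselves, the closest pair by level was Thbs2 with Tnn (0.96), both lowest in WT cells, and by deviation Tnc with Sparc (0.88).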

How the data were processed

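RNA-seq of 16 libraries was used as deposited: FPKM values per gene, made by the authors. The submitters' processing notes name Cufflinks 2.2.1, STAR 2.3.0e, SAMtools, the build mm9 and CASAVA 1.8.2. The annotation was not given in the sources used here. FPKM carries no counts, so the depth is unknown and gives no interval. Values were analysed as log2(FPKM + 1) with limma 3.58.1 (trend; R 4.3.3), keeping genes with a mean of at least 1 FPKM, and p-values were Benjamini-Hochberg adjusted over all tested genes (called: under 0.05). Lines were compared within a set of 8 libraries with time as a block, TGFβ times over 16 libraries with the time series as a block. Each line and time has 1 library per set, so the times serve as repeats. Nothing in the labels says that libraries came from separate cultures. The p-values of the line fits thus measure how far the line difference varies over the times. Those of the time fits measure how far the response varies over the series. This spread may be technical or a difference in TGFβ response between lines, which cannot be told apart. All TGFβ times share the 0 h libraries. The fits were tested on simulated data with independent noise in each library, which cannot show whether the times can serve as repeats. The genes and lists were chosen with earlier results of these data known; from each list, up to 3 called genes of smallest p were eligible to be named. Alternatives were the pseudocount (0.1, 5), the filter, scaling by median ratios or quantiles, no block, a fold threshold, each set alone, and leaving out each library. Some results that the naming rule would give are not reported here.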

Additional observations from a re-analysis of the deposited data

Results flagged for a closer look

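Spp1 moved in opposite directions at 4 h of TGFβ in the series of the 2 sets. On the log2(FPKM + 1) scale the 4 h minus 0 h difference was 1.01 in sim and 1.29 in rvWT, both of set B, and −0.25 in null and −0.28 in WT, both of set A. Each is 1 library against 1, and this difference was not tested. Set B had no null library at 4 h, so set and retroviral infection cannot be told apart for it.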

How the results depend on the processing

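The fits already match libraries by time or series. Beyond that, no paired analysis was possible because the labels give no replicate numbers that mark a common source. Of the 7 genes, the number called in sim minus null was 2 with a fold threshold of 1 on the log2 scale; in rvWT minus null it was 2 with that threshold and 3 without the time block; in sim minus rvWT 0 and 1. At 4 h it was 1 with the threshold, 0 in set A alone and 5 in set B alone, and at 16 h 2 and, in set A alone, 1, where fewer libraries enter. The late response of the Ark-/- derived lines against WT called 1 with quantile normalization; the cause was not tested. Leaving out single libraries gave 3 to 6 calls in rvWT minus null, 0 to 0 in sim minus rvWT, 0 to 1 at 1 h, 2 to 4 at 16 h, 0 to 1 for the late null term and 0 to 2 for the late derived term. Over all genes, calls without single libraries ran from 1946 to 4249 in rvWT minus null, 1581 to 3854 in sim minus null and 1 to 10 in sim minus rvWT (reported: 4230, 3807 and 54). They ran from 640 to 3026 at 16 h (2139), 0 to 437 for the late null term (2) and 14 to 816 for the late derived term (134), so these background shares depend on single libraries. Without the time block the counts were 2200 in rvWT minus null, 1777 in sim minus null and 7 in sim minus rvWT. In the comparisons with set B null, which has no 4 h library, the fit without the block mixes the 4 h response with the line difference.

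Signs changed only for values that were not called. They became 0.029 for Sparc in null minus WT (median ratios) and 0.031 for Fn1 in sim minus rvWT (quantiles). At 1 h they became 0.0036 for Tnn and 0.023 for Fn1 (median ratios), −0.019 for Thbs1 (quantiles), −0.038 for Thbs1 (set A alone), and 0.025 for Tnn and 0.026 for Fn1 (set B alone). Spp1 at 4 h was −0.26 in set A alone. The late null term became 0.0046 (pseudocount 0.1) and 0.052 (quantiles) for Tnc and 0.12 for Spp1 (set A alone), and the late derived term of Sparc 0.054 (median ratios), 0.056 (quantiles) and 0.030 (set A alone). Leaving out single libraries, Thbs1 ran from −0.0068 to 0.11 in sim minus rvWT. At 1 h the ranges were −0.052 to 0.13 for Thbs1, −0.0044 to 0.072 for Tnc, −0.071 to 0.048 for Tnn, −0.21 to 0.057 for Spp1 and −0.062 to 0.050 for Fn1, and at 16 h −0.048 to 0.61 for Fn1. For the late null term they were −0.26 to 0.51 for Thbs1, −0.19 to 0.30 for Tnc, −1.11 to 0.13 for Spp1 and −0.059 to 0.63 for Fn1, and for the late derived term −0.52 to 0.19 for Tnc and −0.058 to 0.055 for Sparc. In set B alone the 16 h and late terms could not be fitted.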
